A study of Mus musculus with 13 samples.

Results

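The kidney's response to lipopolysaccharide (LPS) in mice lacking DsbA-L was measured by RNA sequencing in 6 of the 13 kidney libraries of the series. Of these, 3 came from knockout mice given LPS at 10 mg/kg into the peritoneum (AKI-156, AKI-320 and AKI-381) and 3 from knockout mice given 200 µL of saline (N1, N2 and N3). All 6 libraries came from mice with the DsbA-L knockout. The other 7 libraries, from wild-type mice given LPS (n = 4) or saline (n = 3), are used here for the shared estimate of spread and to test whether a response differed between genotypes. The knockout allele, strain, age, sex and time of sampling are not given in the sources used here, nor is it stated whether each library was 1 animal. P-values therefore measure only the spread between these libraries. The series was designed around NF-κB, AP-1 and macrophage polarization in LPS kidney injury.

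LPS is a component of the outer membrane of Gram-negative bacteria. It is bound by CD14 and the TLR4 and MD-2 receptor complex, which signals through the adaptor MyD88 to NF-κB and AP-1 and through TRIF to interferon genes. In the kidney, tubule cells and resident macrophages respond with cytokines, chemokines and acute-phase proteins, and tubule cells lose transporters and mitochondrial enzymes while injury markers such as KIM-1 and NGAL appear. DsbA-L is the product of Gstk1, a glutathione transferase found in peroxisomes and mitochondria.

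The targeted gene was low in all 6 libraries. Gstk1 had 1, 27 and 19 counts in AKI-156, AKI-320 and AKI-381 and 60, 41 and 44 counts in N1, N2 and N3, against at least 297 in each wild-type library. Treatment could not be separated from the state of the sex chromosomes. Xist, the RNA that silences an X chromosome in females, stood at 0.257, 0.352 and 0.569 CPM (counts per 1e6 after scaling) in the LPS libraries and at 1100, 982 and 683 CPM in the saline libraries. Kdm5d, Eif2s3y, Uty and Ddx3y, all on the Y chromosome, had no count in any saline library and counts in each LPS library, and Ddx3y stood there at 130, 57.2 and 77.9 CPM. The wild-type libraries showed the same pattern, with Ddx3y at 131 CPM on average under LPS and 0 with saline. Every difference below is therefore LPS with Y-linked transcripts against saline with Xist, and the effects of LPS and of sex cannot be told apart. Libraries held 14372212 to 16571516 counts. AKI-156 stood apart from the other LPS libraries on the first principal component (69.7% of variance), at -101 against -52.2 and -53.8. The saline libraries lay there at 68.6 to 70.1. On the second component (13.7%) AKI-156 stood at 52.1 against -50.1 and -22.9. It was the highest of the 3 LPS libraries for 64.4% of the genes called higher and the lowest for 63.2% of the genes called lower. The 13 kidney markers used to check the tissue had counts in all 6 libraries, the lowest being the intercalated cell exchanger Slc4a1 at 0.514 CPM in AKI-156.

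Letters of DNA upstream of a few responding genes show the elements that NF-κB and interferon-regulated factors are known to bind. The NF-κB element was searched in 3 common forms of its consensus, which overlap each other, on either strand, within the 250 bases before to 50 bases after each RefSeq gene start. It lay in 2.92% of genes called higher with a promoter entry (49 of 1678), 0.954% of genes called lower (14 of 1468) and 1.41% of all tested genes (160 of 11310). Among the chemokine genes it lay in 5 of 14. The 3 genes with the largest rises among acute-phase, cytokine, chemokine and NF-κB pathway genes that hold it, ranked by fitted log2 fold change, were Il6, Cxcl1 and Ccl20. Il6 and Ccl20 had no saline count, so their places in that order rest on fitted values over an empty group. Their 120 bases before the gene start are printed 5′ to 3′ along the gene (RefSeq, GRCm38.p6), with the element in capitals.
Il6, chr5:30012994-30013113, + strand: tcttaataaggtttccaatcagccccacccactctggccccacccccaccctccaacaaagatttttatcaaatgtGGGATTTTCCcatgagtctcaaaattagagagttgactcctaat
Cxcl1, chr5:90891125-90891244, + strand: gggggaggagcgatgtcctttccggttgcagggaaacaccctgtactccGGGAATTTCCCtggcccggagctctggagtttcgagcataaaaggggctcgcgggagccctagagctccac
Ccl20, chr1:83116646-83116765, + strand: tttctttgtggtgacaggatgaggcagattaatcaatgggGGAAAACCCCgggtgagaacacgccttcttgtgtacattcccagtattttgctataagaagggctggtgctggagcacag

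The interferon-stimulated response element, searched as TTTC, any 2 bases and TTTC on either strand, lay in 16 of 25 interferon-stimulated genes with a promoter entry, in 6.5% of genes called higher and in 3.85% of all tested genes. Isg15, a ubiquitin-like protein, and Ifit1, which binds foreign RNA, are the first called genes of that list with a match in the printed bases. The presence of a match was thus set by the choice, and both were chosen after their values were seen. Capitals mark the matches, which overlap in Isg15.
Isg15, chr4:156200819-156200938, - strand: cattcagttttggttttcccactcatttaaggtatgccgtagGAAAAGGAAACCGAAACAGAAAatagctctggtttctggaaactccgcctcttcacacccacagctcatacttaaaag
Ifit1, chr19:34640769-34640888, + strand: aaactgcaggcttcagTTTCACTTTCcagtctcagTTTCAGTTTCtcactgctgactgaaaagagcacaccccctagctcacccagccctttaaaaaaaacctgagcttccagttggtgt

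The AP-1 element, searched as TGANTCA, lay in 9.83% of genes called higher, 6.95% of genes called lower and 6.91% of all tested genes. The PPAR element was found in 4 promoters of tested genes. A match is a string of letters and not a measured binding site.

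Inflammatory, interferon and injury transcripts rose with LPS in knockout kidney, and transcripts of the nephron and of its metabolism fell. Of 15703 genes tested, 2310 (14.7%) were called higher and 2024 (12.9%) lower with LPS at an edgeR quasi-likelihood adjusted p below 0.05. All 3 LPS libraries lay above all 3 saline libraries for 3658 genes (23.3%) and below them for 3494 (22.3%). Without AKI-156 the counts were 1735 higher and 1526 lower. The split depended on the scaling. When libraries were scaled by their totals alone 3150 genes were called higher and 1341 lower, so that 70.1% of calls were higher instead of 53.3%, and the median log2 difference over all genes moved from 0.026 to 0.193. Changes are given below as log2 fold changes with LPS ± SE from the TMM-scaled fit, and levels as CPM. Genes with few saline counts could reach the count minimum only through the LPS libraries. Members with under 10 counts over the 3 saline libraries together numbered 5 of 22 tested acute-phase genes, 9 of 17 cytokines, 5 of 20 chemokines, 6 of 10 neutrophil markers, 5 of 12 M1-type genes and 4 of 16 M2-type genes, and the shares called higher in these lists were partly set by that filter. Values of single libraries are in the order AKI-156, AKI-320, AKI-381 for LPS and N1, N2, N3 for saline.

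**Figure D1:**
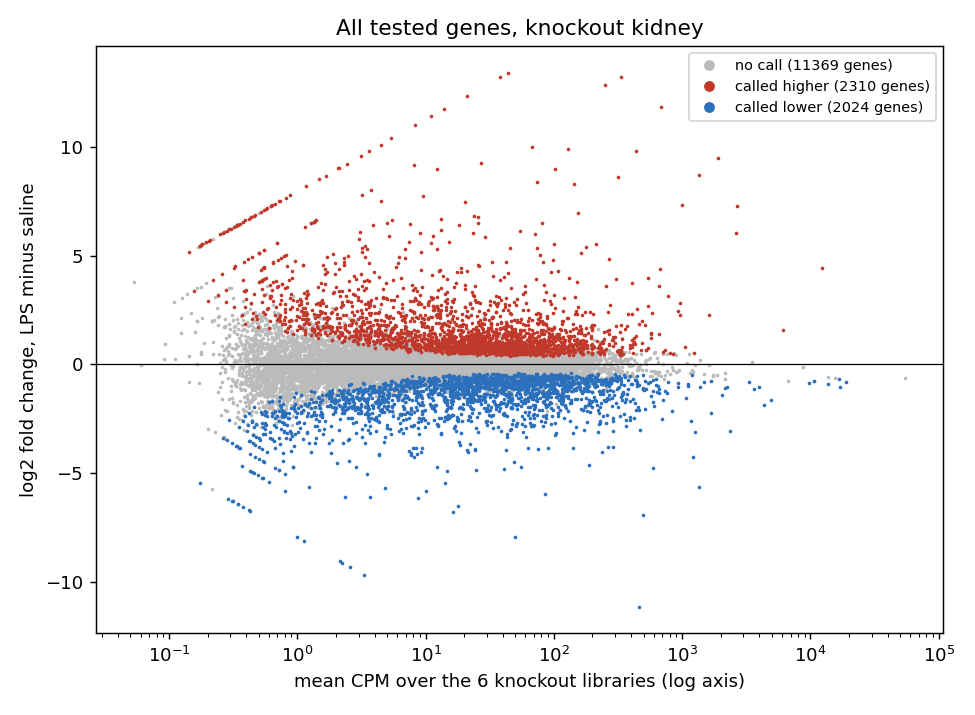
Log2 fold change with LPS against the mean level in CPM (log axis) over the 6 knockout libraries, 1 point per tested gene. The 2310 genes called higher are red, the 2024 called lower blue and the rest grey, and both colours run over the whole range of levels.

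Sex-linked genes aside, acute-phase and secreted defence proteins were among the steepest rises and were called higher in 22 of 22 tested members with a median log2 fold change of 6.74, against 0.026 over all tested genes. Lcn2 (NGAL), which binds bacterial siderophores, stood at 4590, 3100 and 3680 CPM with LPS and at 5.34, 5.52 and 5.01 CPM with saline. It rose by 9.48 ± 0.46 (edgeR adjusted p = 6.33e-08), and the 3 LPS libraries lay close together. Saa3, the serum amyloid A protein made outside the liver, stood at 462, 184 and 131 CPM with LPS and at 0, 0.613 and 0.179 CPM with saline. Orm2, an acute-phase carrier protein, reached 657, 387 and 467 CPM against 3 counts in all saline libraries together, a ratio of 8150 (95% counting interval 2790 to 39500). Saa2 likewise had 3 saline counts and reached 1030, 402 and 553 CPM, but its reads cannot be assigned with certainty between it and its near-identical neighbour Saa1. The fibrinogen chains Fga, Fgb and Fgg, clotting proteins usually made by the liver, rose by 6.06, 8.71 and 7.30. The smallest rise of the list was that of the LPS-binding protein Lbp, at 1.74, whereas the LPS co-receptor Cd14 rose by 5.4. These 5 genes were named after their values were seen.

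Other large rises were in matrix, tubular and steroid genes. Mmp7, an epithelial matrix metalloproteinase, stood at 185, 70.2 and 147 CPM with LPS and at 0.251, 0.123 and 0 CPM with saline (10.00 ± 0.56, edgeR adjusted p = 1.23e-07). Sult1e1, the oestrogen sulfotransferase, had no saline count and stood at 40.9, 4.58 and 4.38 CPM with LPS, at least 271-fold higher (taking 3 counts in the 3 saline libraries together as the limit of detection). Slco1a1, an organic anion transporter known as higher in male mouse kidney, was at least 176-fold higher by the same limit, at 21.3, 9.33 and 1.88 CPM. For both, AKI-156 was the highest library and the saline group was empty.

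**Figure D2:**
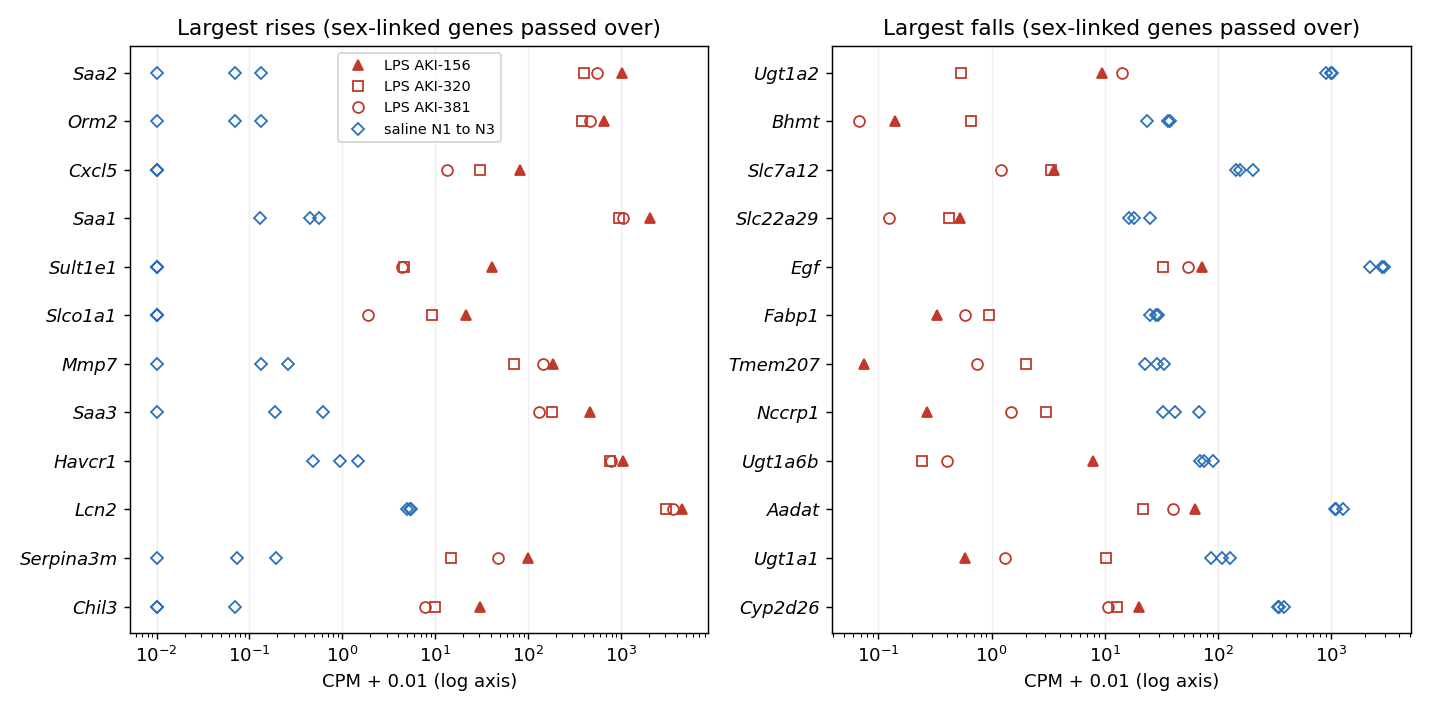
Level in each knockout library, as CPM + 0.01 on a log axis, for the 12 largest rises (left) and 12 largest falls (right) among called genes with a mean of at least 5 CPM, after passing over the X- and Y-linked marker genes such as Xist and Ddx3y, predicted genes, pseudogenes and immune receptor segments. Red symbols are the LPS libraries (filled triangle, AKI-156) and blue diamonds the saline libraries. Only genes whose red and blue ranges do not overlap were taken, so their separation was set by the choice.

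Among cytokine ligands, 17 of 23 were measured well enough to test, and 11 were called higher and 0 lower. Their median log2 fold change was 3.03, or 2.80 with the 3 genes that had no saline count set at their bound. Il34 and Csf1 are the alternative ligands of the macrophage colony-stimulating factor receptor. Il34 stood at 129, 68 and 54.2 CPM against 4.52, 5.09 and 4 CPM (4.21 ± 0.36, edgeR adjusted p = 4.16e-06), and Csf1 at 41.2, 96 and 54.9 CPM against 10.3, 8.83 and 8.47 CPM (2.80 ± 0.29, edgeR adjusted p = 1.43e-05). The 2 ligands differed in which LPS library was highest, AKI-156 for Il34 and AKI-320 for Csf1. Lif, an interleukin-6 family cytokine, rose by 4.68 ± 0.43 and Il1rn, the natural antagonist of interleukin-1, by 4.39 ± 0.69. Classical macrophage cytokines had few counts in whole kidney. Il6, whose promoter is printed above, stood at 18, 2.64 and 1.14 CPM and had no saline count, at least 119-fold higher. Tnf stood at 1.22, 0.235 and 0.398 CPM against 1 saline count, a ratio of 29.3 (95% counting interval 4.87 to 1200). Il1b, at 4.5, 1.11 and 1.76 CPM against 1.26, 0.429 and 0.716 CPM, overlapped between groups and was not called (1.60 ± 0.97, edgeR adjusted p = 0.244).

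Chemokine ligands were called higher in 15 of 20 tested members and lower in 0, with a median of 2.64, or 2.49 with bounds. The neutrophil attractant Cxcl1 stood at 293, 69.2 and 58.2 CPM against 2.45, 1.23 and 2.8 CPM and rose by 6.01 ± 0.74. Cxcl5, which acts on the same receptor, reached 82.8, 30.3 and 13.5 CPM from no saline count, at least 689-fold higher. Cxcl13, the B-cell attractant, was more even, at 61.5, 45.9 and 30.9 CPM against 0.314, 1.53 and 0.239 CPM. The interferon-induced chemokine Cxcl9 stood at 196, 48.8 and 75.7 CPM against 2.01, 1.17 and 1.37 CPM and rose by 6.13 ± 0.62. Ccl2, the monocyte attractant, rose by 4.92 ± 0.60. Ccl20, which attracts CCR6-bearing lymphocytes, was scarce, at 0.45, 0.235 and 0.398 CPM from no saline count, at least 5.9-fold higher. Cxcl9, Cxcl1 and Cxcl5 shared AKI-156 as their highest library, and Ccl2, at 12.2, 14.7 and 9.05 CPM, did not.

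Of 26 receptors and adaptors tested, 12 were called higher and 0 lower, and the median was 0.74. The LPS receptor Tlr4, at 17, 9.97 and 13.8 CPM against 4.21, 4.78 and 6.8 CPM, did not overlap between groups but missed the threshold (1.37 ± 0.52, edgeR adjusted p = 0.0654). Its partner Ly96 (MD-2) was also not called, whereas the adaptor Myd88 rose by 1.31 ± 0.23. Irak3, an inhibitor of the same pathway, stood at 19.5, 14 and 12.1 CPM against 2.83, 1.84 and 1.91 CPM and rose by 2.79 ± 0.26 (edgeR adjusted p = 8.26e-06). Osmr, the oncostatin M receptor subunit, stood at 188, 62.3 and 63.5 CPM against 15.8, 11.2 and 6.26 CPM, and Tnfrsf1b, the second TNF receptor, rose by 2.62 ± 0.31.

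NF-κB pathway genes were called higher in 14 of 20 and lower in 0, with a median of 1.12. Feedback inhibitors and inducible members were among those that rose. Bcl3, a nuclear IκB protein, stood at 24.2, 21.5 and 14.3 CPM against 2.57, 2.82 and 2.15 CPM (2.99 ± 0.36). Nfkbiz, another nuclear IκB protein, stood at 157, 76 and 62.2 CPM against 18.4, 17.2 and 16.6 CPM (2.50 ± 0.29). Ikbke, an inducible IκB kinase, was even across libraries at 14.1, 17.8 and 14.2 CPM and rose by 1.89 ± 0.18. The fold changes of the subunits were smaller, Nfkb1 by 0.66 ± 0.18 (edgeR adjusted p = 0.0121) and Rela by 0.80 ± 0.26 (edgeR adjusted p = 0.0358). The Nfkb1 call ended without AKI-156, and that of Rela without AKI-156, AKI-320 or any 1 knockout saline library. Ikbkb, the canonical kinase subunit, stood at 71.3, 89.8 and 96.2 CPM against 81.7, 72.9 and 80.7 CPM and was not called.

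AP-1 subunits and their bZIP partners were called higher in 7 of 15 and lower in 0 (median 1.08), a count of 5 without AKI-156. Fosl1 (Fra-1) stood at 17.8, 8.33 and 4.21 CPM against 0.188, 0.184 and 0.119 CPM and rose by 5.88 ± 1.0 (edgeR adjusted p = 0.000696). Maff, a small Maf protein, rose by 2.47 ± 0.29, Junb by 1.45 ± 0.28 and Fosl2 by 1.26 ± 0.21. The Junb value was 0.96 without AKI-156, in which Junb stood at 86.3 CPM against 41.5 and 36.1 CPM in AKI-320 and AKI-381. Fos, at 17.1, 12.4 and 9.11 CPM against 30.6, 31.4 and 7.7 CPM, and Jun, at 172, 68.9 and 89.7 CPM against 71.6, 77 and 42.4 CPM, overlapped between groups and were not called.

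JAK-STAT genes, which relay interleukin-6 and interferon signals, were called higher in 14 of 24 and lower in 1 (median 1.18), or lower in 0 without AKI-156, AKI-320 or any 1 saline library. The feedback inhibitor Socs3 stood at 165, 43.1 and 36.7 CPM against 4.27, 3.13 and 2.03 CPM (4.70 ± 0.55, edgeR adjusted p = 4.06e-05). Stat3, a transcription factor activated by interleukin-6, rose by 1.73 ± 0.25. Irf7, the amplifier of type I interferon, stood at 251, 206 and 155 CPM against 11.7, 8.52 and 10.9 CPM and rose by 4.30 ± 0.24.

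Interferon-stimulated genes were called higher in 29 of 32 and lower in 0, with a median of 2.84. The guanylate-binding protein Gbp2 stood at 3150, 1350 and 1430 CPM against 14.2, 10.2 and 12.1 CPM (7.34 ± 0.44, edgeR adjusted p = 2.1e-07). The immunoproteasome subunit Psmb8, also of this list, rose by 4.24 ± 0.27 and the peptide transporter Tap1 by 2.85 ± 0.27. Isg15, with its promoter printed above, stood at 58.2, 34.5 and 20.7 CPM against 2.83, 2.64 and 3.52 CPM and Ifit1 at 91, 37.3 and 38.8 CPM against 11, 5.21 and 5.79 CPM. Rsad2 (viperin), at 112, 57.4 and 50.7 CPM against 55.3, 19.6 and 47 CPM, was among the 3 not called. AKI-156 was the highest LPS library for 25 of the 32.

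Tubular injury and repair genes were called higher in 19 of 22 and lower in 0 (median 1.94). Havcr1 (KIM-1), a phagocytic receptor of injured proximal tubule, stood at 1050, 773 and 778 CPM against 0.942, 1.47 and 0.477 CPM (9.80 ± 1.33, edgeR adjusted p = 0.000121). Spp1 (osteopontin), a secreted glycoprotein of injured tubule, stood at 31700, 16500 and 21300 CPM against 1120, 1060 and 1090 CPM. Both were high in all 3 LPS libraries. Krt20, a keratin of injured tubule, and Sox9, a transcription factor of tubular repair, were uneven. Krt20 stood at 1210, 285 and 389 CPM against at most 1.79 CPM, and Sox9 at 64.4, 13.8 and 11.9 CPM against at most 0.656 CPM. Timp1, an inhibitor of metalloproteinases, rose by 6.42 ± 0.63, and Clu (clusterin), a secreted chaperone, by 2.70 ± 0.30. Cryab, a small heat shock protein, stood at 46.1, 143 and 81.6 CPM against 149, 114 and 229 CPM and was not called.

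Cell death genes were called higher in 10 of 21 and lower in 0 (median 0.97). The necroptosis executioner Mlkl stood at 24, 23.1 and 20.9 CPM against 2.26, 1.96 and 2.03 CPM (3.44 ± 0.25, edgeR adjusted p = 7.68e-07), its kinase Ripk3 at 6.55, 5.16 and 5.86 CPM against 1.07, 0.981 and 0.537 CPM (2.76 ± 0.37). The 3 LPS libraries agreed closely for both. The nucleic acid sensor Zbp1, at 78.3, 37.1 and 33.6 CPM against at most 2.45 CPM, rose by 4.54 ± 0.47 and the pyroptosis pore protein Gsdmd by 1.52 ± 0.21. The survival genes Mcl1 and Bcl2l1 were not called, and Bcl2l1 stood at 244, 65.9 and 63.4 CPM against 37.8, 53.2 and 99.6 CPM.

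Markers of the nephron were lower along its length. In bulk tissue, fewer cells of a type and less RNA per cell cannot be told apart. Proximal tubule genes were called lower in 19 of 24 and higher in 0 (median -1.52), and in 14 of 24 without AKI-156. The endocytic receptor Lrp2 (megalin) stood at 236, 295 and 461 CPM against 2260, 2180 and 1610 CPM (-2.61 ± 0.26, edgeR adjusted p = 1.3e-05), and its partner Cubn (cubilin) at 26.9, 61.5 and 96.5 CPM against 576, 532 and 432 CPM (-3.06 ± 0.38). In both the order of the LPS libraries was the same, with AKI-156 lowest. The organic anion transporter Slc22a8 was even, at 43.4, 40.7 and 32.1 CPM against 562, 520 and 546 CPM, and fell by 3.81 ± 0.35. The urate transporter Slc22a12, at 288, 653 and 471 CPM against 708, 628 and 731 CPM, overlapped and was not called.

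In the thick ascending limb 11 of 14 genes were called lower and 0 higher (median -1.65). Slc12a1 (NKCC2), the salt cotransporter blocked by loop diuretics, stood at 44.7, 197 and 122 CPM against 2180, 2400 and 2320 CPM (-4.25 ± 0.70, edgeR adjusted p = 0.000573). Egf, made by the thick ascending and distal tubule, stood at 72.9, 32.5 and 54.8 CPM against 2960, 2810 and 2210 CPM (-5.64 ± 0.54). Umod, the most abundant urinary protein, stood at 2230, 2190 and 2870 CPM against 4260, 4680 and 3780 CPM and fell by only 0.80 ± 0.25 (edgeR adjusted p = 0.0307), a call that ended without AKI-156, AKI-320, N1 or N2. The prostaglandin receptor Ptger3 fell by 2.02 ± 0.26.

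The distal convoluted tubule list was called lower in 10 of 12 (6 with library totals) and higher in 0, with a median of -1.34. Slc12a3 (NCC), the thiazide-sensitive cotransporter, stood at 147, 143 and 297 CPM against 938, 802 and 725 CPM (-2.07 ± 0.26). Its regulators Wnk1, a kinase, and Klhl3, an adaptor of the ligase that degrades WNK kinases, fell by 1.39 ± 0.20 and 2.63 ± 0.40. Pvalb, a calcium buffer, stood at 2.31, 0.293 and 0.0569 CPM against 17.6, 11.2 and 13.1 CPM. Its fall of 4.0 ± 0.77 became 6.26 without AKI-156.

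In principal cells of the collecting duct 8 of 15 genes were called lower and 0 higher (median -0.99). The water channel Aqp2 stood at 35.8, 136 and 103 CPM against at most 358 CPM, with no overlap between groups (-1.89 ± 0.47, edgeR adjusted p = 0.00885), and Aqp3 at 17.1, 53.7 and 42 CPM against 180, 177 and 172 CPM (-2.23 ± 0.35). The vasopressin receptor Avpr2 stood at 0.964, 9.27 and 3.3 CPM against 20.4, 17.7 and 16.3 CPM, and its fall of 2.0 became 3.06 without AKI-320. The mineralocorticoid receptor Nr3c2 fell by 1.36 ± 0.28 and its target kinase Sgk1 by 0.87 ± 0.21. The sodium channel subunits divided, with Scnn1g called lower (-1.08 ± 0.25) and Scnn1a, at 85.5, 115 and 164 CPM against 150, 138 and 149 CPM, not called. Intercalated cell genes were called lower in 10 of 15 and higher in 0 (median -1.14), and in 6 of 15 without N3. The proton pump subunit Atp6v1b1 stood at 7.33, 38.5 and 25.4 CPM against 127, 102 and 118 CPM and fell by 2.28 ± 0.43. The anion exchanger Slc4a1, at 0.514, 10.8 and 12.5 CPM against 53.4, 39.9 and 59.7 CPM, lost its call without N3, and pendrin (Slc26a4) fell by 0.87 ± 0.20.

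Podocyte genes were mostly not called. Of 13, 3 were called lower and 1 higher (median -0.39). Nphs1 (nephrin), the slit diaphragm protein, stood at 6.23, 20.7 and 14.3 CPM against 37.6, 35.8 and 27.3 CPM (-1.28 ± 0.44, edgeR adjusted p = 0.0432), a call that ended without any 1 saline library, AKI-156 or AKI-381. The scaffold Magi2 fell by 2.10 ± 0.22 and the adaptor Cd2ap, which other kidney cells also express, rose by 0.73 ± 0.16.

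**Figure D3:**
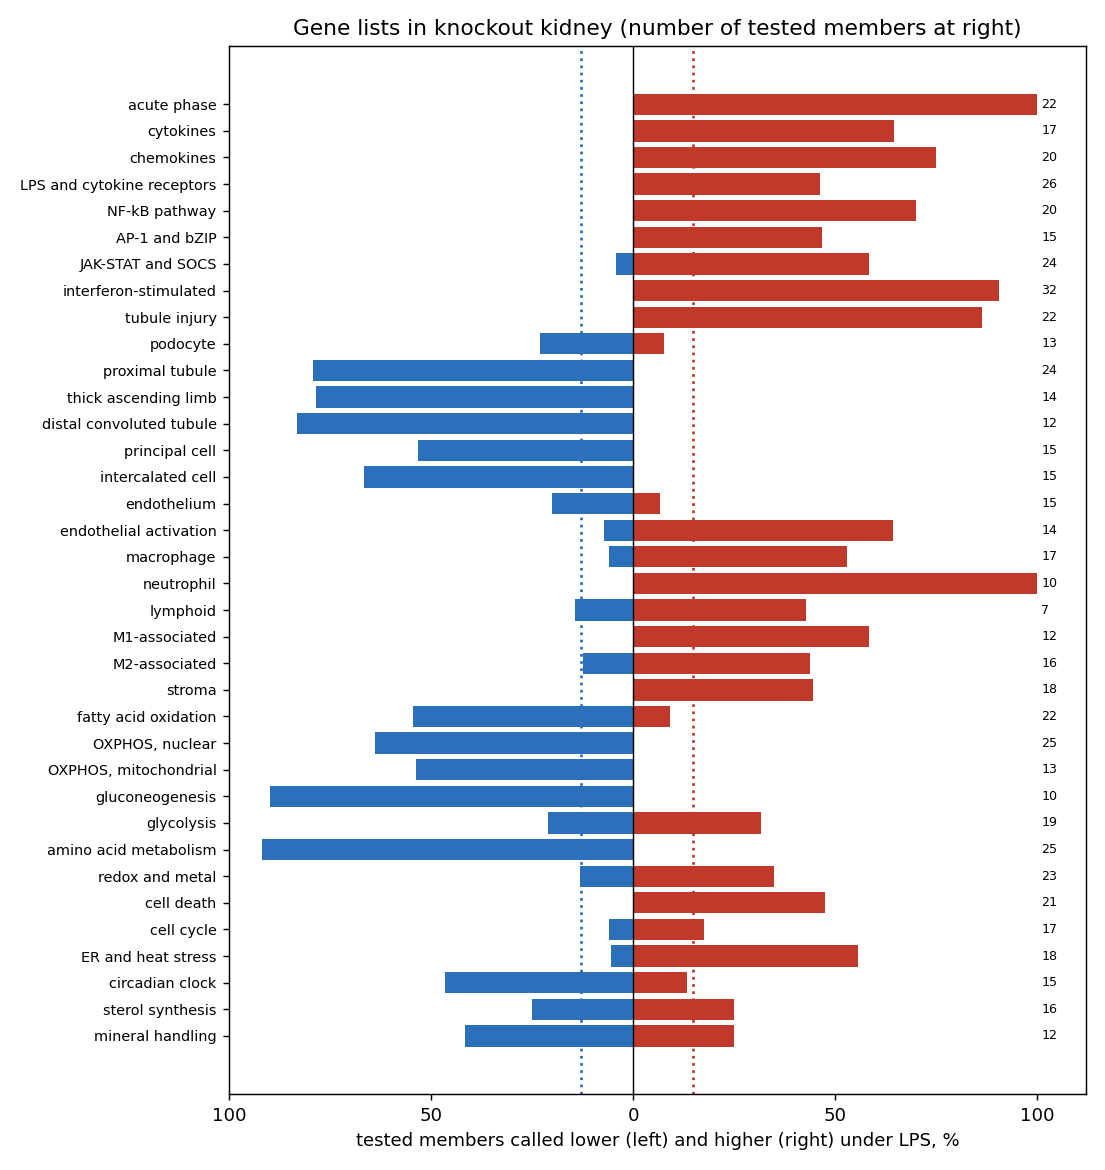
Percent of the tested members of each gene list called higher (red, right) or lower (blue, left) with LPS in knockout kidney, with the number tested at the right edge. Dotted lines mark the shares over all tested genes, 14.7% and 12.9%. The inflammatory lists extend to the right and the nephron and most metabolic lists to the left of them. Glycolysis, sterol synthesis, mineral handling and lymphoid genes extend beyond both lines, as do redox genes, which pass the left line only just.

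Metabolic enzymes of the proximal tubule fell with its transporters. Amino acid metabolism had the highest share called lower of these lists, 23 of 25, with 0 called higher and a median of -1.99. Bhmt, which remethylates homocysteine, stood at 0.129, 0.645 and 0.0569 CPM against 23.5, 37.5 and 36.3 CPM (-6.82 ± 0.73, edgeR adjusted p = 2.09e-05), a call that ended under limma-voom with sample weights (adjusted p = 0.0522). Hao2, a peroxisomal hydroxyacid oxidase, stood at 36.2, 28.1 and 17.2 CPM against 474, 491 and 380 CPM (-4.04 ± 0.43), and Prodh2, a hydroxyproline dehydrogenase, at 5.14, 5.92 and 4.04 CPM against 83.3, 70.5 and 83.1 CPM (-3.97 ± 0.30). Gatm, the first enzyme of creatine synthesis, fell by 3.05 ± 0.32 and Ass1, which makes arginine from citrulline, by 2.32 ± 0.29. Every LPS library lay below every saline library for these enzymes. Aadat, an aminotransferase of lysine and tryptophan breakdown, stood at 62.8, 21.9 and 39.8 CPM against 1100, 1270 and 1080 CPM (-4.79 ± 0.52).

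Gluconeogenesis was called lower in 9 of 10 and higher in 0 (median -1.42). Pck1, its rate-limiting enzyme, stood at 972, 1550 and 3030 CPM against 7020, 7720 and 5780 CPM (-1.89 ± 0.41), and G6pc, which releases free glucose, at 173, 57.3 and 105 CPM against 711, 777 and 513 CPM (-2.58 ± 0.44). Glycolysis was mixed, with 6 of 19 called higher and 4 lower (median -0.06), and 2 lower without N1, N2 or N3. Hexokinase Hk2 stood at 20.7, 8.1 and 7.86 CPM against 0.691, 1.78 and 0.716 CPM (3.51 ± 0.53), and Slc2a6, a transporter of the glucose transporter family, rose by 4.94 ± 0.45. The muscle-type phosphofructokinase Pfkm fell by 1.73 ± 0.20.

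Fatty acid oxidation was called lower in 12 of 22 and higher in 2 (median -0.79), or higher in 1 without AKI-156, any 1 knockout saline library or wild-type N2 or N3. The thiolase Acaa2 stood at 52.8, 76.3 and 74.2 CPM against 462, 416 and 463 CPM (-2.72 ± 0.22, edgeR adjusted p = 2.19e-06), and the dehydrogenase Acadm at 304, 308 and 304 CPM against 1240, 1620 and 1190 CPM (-2.14 ± 0.25). Fabp1, a fatty acid carrier, stood at 0.321, 0.939 and 0.569 CPM against 25.4, 29.6 and 28.5 CPM (-5.48 ± 0.56). The 3 were low in every LPS library. Ppara, the receptor that drives this pathway, stood at 40.2, 11.5 and 65.9 CPM against 77.5, 93.3 and 90.7 CPM and missed the threshold (-1.15 ± 0.45, edgeR adjusted p = 0.0698), as did Cpt1a, the carnitine transferase at the entry to mitochondria (-0.40 ± 0.18).

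Nuclear genes of oxidative phosphorylation were called lower in 16 of 25 and higher in 0, by small amounts (median -0.70), and only 2 were also at least 1 log2 unit lower. Ndufs1, of complex I, stood at 114, 88.4 and 126 CPM against 254, 238 and 218 CPM (-1.11 ± 0.24) and Atp5a1, of the ATP synthase, at 667, 803 and 752 CPM against 1500, 1490 and 1530 CPM (-1.02 ± 0.16). Transcripts of mitochondrial DNA made up 16.6%, 15.4% and 12.6% of counts with LPS and 21.9%, 22.6% and 22% with saline. The means were 14.9% ± 2.03 and 22.2% ± 0.362 (SD, n = 3 each) and the groups did not overlap (exact permutation test, two-sided, p = 0.1, the smallest that 3 against 3 can give). Of the 13 mitochondrial messenger RNAs 7 were called lower and 0 higher (median -0.79), a count that lay between 2 and 11 when single knockout libraries were left out (11 without AKI-156, 4 without AKI-320, 2 without AKI-381, 3 without N1, 2 without N2). mt-Nd4l stood at 2910, 1890 and 2070 CPM against 4990, 5130 and 4970 CPM (-1.13 ± 0.25), and mt-Co1 at 54500, 38100 and 34200 CPM against 63800, 65700 and 70200 CPM was not called (edgeR adjusted p = 0.0792).

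Several of the largest falls were in detoxification and transport. Slc22a29, an organic anion transporter family member, stood at 0.514, 0.411 and 0.114 CPM against 25.4, 16.3 and 18 CPM (-5.83 ± 0.73). Cyp2d26, a cytochrome P450, stood at 20.3, 12.8 and 10.8 CPM against 388, 340 and 351 CPM (-4.62 ± 0.29, edgeR adjusted p = 2.43e-07). Ugt1a2, Ugt1a6b and Ugt1a1, glucuronosyltransferases, were also among the largest falls. They are made from 1 locus with shared 3′ exons, so that counting can split their reads, and their LPS libraries disagreed. Ugt1a2 stood at 9.45, 0.528 and 14.2 CPM, Ugt1a6b at 7.9, 0.235 and 0.398 CPM and Ugt1a1 at 0.578, 10.3 and 1.31 CPM, against saline levels of at least 914, 69.8 and 86.7 CPM. The fall of Ugt1a6b was 4.81 with all libraries and 7.91 without AKI-156. Tmem207 and Nccrp1 were also among the 12 falls named by the rule, which passes over sex-linked genes, the first at 0.0643, 1.99 and 0.74 CPM against 29.1, 33.4 and 22.5 CPM.

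Endothelial identity genes were mostly not called, with 1 of 15 higher and 3 lower (median 0.10), or 3 higher and 1 lower with library totals (median 0.27), while genes of endothelial activation were called higher in 9 of 14 and lower in 1 (median 1.29). Pecam1, a junction protein of all endothelium, stood at 81.5, 107 and 107 CPM against 98.9, 86.9 and 86.6 CPM. Ehd3, of glomerular endothelium, fell by 1.30 ± 0.26 and Plvap, the fenestral diaphragm protein, by 0.93 ± 0.26, a call that ended with library totals and with the 6 knockout libraries alone. Nos3, endothelial nitric oxide synthase, was even at 31.7, 35.1 and 34.9 CPM against 13.4, 10.2 and 11.3 CPM and rose by 1.54 ± 0.22. The adhesion molecules Icam1, Vcam1 and Selp rose by 2.49 ± 0.35, 2.51 ± 0.31 and 3.75 ± 0.45. Sele (E-selectin), at 5.78, 3.4 and 3.53 CPM against 2.26, 2.27 and 1.01 CPM, was not called.

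Macrophage and monocyte markers were called higher in 9 of 17 and lower in 1 (median 0.68). The higher count lay above the share over all tested genes, 14.7%, and the lower count under its share, 12.9%. The summed level of these markers was 409 to 517 CPM with LPS and 272 to 299 CPM with saline. Itgam (CD11b), shared by monocytes and neutrophils, stood at 24.2, 18.9 and 28.2 CPM against 0.377, 1.04 and 0.358 CPM (5.31 ± 0.81), and the lysosomal protein Cd68 at 20.6, 20 and 22.9 CPM against 4.58, 2.39 and 2.92 CPM (2.68 ± 0.34). Csf1r, the receptor of the colony-stimulating ligands described above, went the other way, at 14.1, 18 and 21.3 CPM against 48.8, 53.5 and 51.6 CPM (-1.52 ± 0.18, edgeR adjusted p = 4.65e-05). Adgre1 (F4/80), the marker of resident kidney macrophages, stood at 5.14, 4.34 and 5.24 CPM against 4.39, 5.46 and 7.34 CPM and was not called. The complement gene C1qa rose by 0.98 ± 0.29, a call that ended without AKI-320 or any 1 knockout saline library.

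Of genes used to mark M1-type macrophages 7 of 12 were called higher and 0 lower (median 1.99), and of M2-type genes 7 of 16 were called higher and 2 lower (median 0.53). Both higher counts lay above the share over all tested genes, 14.7%, and the M2-type lower count near its share, 12.9%. Nos2, the inducible nitric oxide synthase, stood at 14.9, 5.69 and 5.18 CPM against 1.13, 0.491 and 0.716 CPM (3.45 ± 0.52). Irg1, which makes itaconate, stood at 13.2, 1.99 and 3.76 CPM against 1 saline count, a ratio of 299 (95% counting interval 53.2 to 11800). Cd86, a costimulatory M1-type marker, stood at 3.79, 1.76 and 1.25 CPM against 4.02, 4.29 and 3.28 CPM and was not called. Among M2-type genes Arg1, arginase, rose from at most 0.188 CPM to 1.16, 1.64 and 1.42 CPM (3.68 ± 0.90, edgeR adjusted p = 0.0101). Chil3 (Ym1) stood at 30.8, 9.86 and 7.86 CPM against 1 saline count, a ratio of 767 (95% counting interval 137 to 30300), and the interleukin-4 receptor subunit Il4ra rose by 1.72 ± 0.20. Mrc1 (CD206), at 6.75, 6.45 and 6.66 CPM against 8.73, 12.5 and 6.98 CPM, was not called. Mgl2 and Clec7a, lectins of macrophages and dendritic cells, were the 2 called lower, named after their values were seen, and 1 or both calls ended without AKI-381, N1 or N2.

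Of 14 neutrophil markers 10 reached the count minimum, largely through the LPS libraries. The summed level of the 14 depended on 1 library. It was 268 CPM in AKI-156, 46 in AKI-320 and 41.7 in AKI-381, against 2.51 to 2.86 CPM with saline. S100a9, a calcium-binding protein of neutrophils, stood at 121, 17.6 and 11.9 CPM against 0.188, 0.675 and 0.477 CPM and S100a8 at 45.8, 5.92 and 5.75 CPM, whereas lactoferrin (Ltf) was even at 6.36, 4.75 and 7.57 CPM against at most 1.07 CPM. The defining marker Ly6g did not reach the count minimum. AKI-156 was also the highest LPS library for 13 of 17 cytokines and 25 of 32 interferon-stimulated genes, but for only 11 of 22 injury genes. It was the highest for 64.4% of all genes called higher. The part of neutrophil transcripts in those results was not tested.

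Lymphoid markers were scarce, with 7 of 14 tested, 3 higher and 1 lower (0 lower without AKI-156, AKI-320 or any 1 saline library). Cd3e and Ncr1 did not reach the count minimum. The gene called lower was Cd4 (-1.28), and the lymphocyte markers Cd79b (-1.29) and Cd8a (-0.64) were not called. The granzymes Gzma and Gzmb stood at 8.93, 3.75 and 5.07 CPM and at 8.48, 3.58 and 4.1 CPM against at most 0.753 CPM and rose by 4.14 ± 0.48 and 3.91 ± 0.67, and Prf1 (perforin) rose by 2.07 ± 0.64, a call that ended without AKI-320, AKI-381 or any 1 knockout saline library. Markers of other tissues were mostly not called higher. Liver markers were called lower in 5 of 5 tested (2 without AKI-156, AKI-381, N2 or N3), with a summed level of 13.7 to 26.7 CPM with LPS and 45.3 to 54.4 CPM with saline, while the fibrinogen and serum amyloid transcripts, known from liver, rose. Red cell genes were called in 0 of 6. Their log2 fold changes were 0.34 to 1.07, and 1 was called higher with library totals and 3 with a replicate block. Adrenal genes were called in 0 of 2 tested (0.2 and 0.62) and adipose genes in 1 of 8, the lipid droplet protein Plin4 (1.62 ± 0.39). The adipose median was -0.68, with values from -1.75 to 1.62. Adipoq (adiponectin), not called, stood at -1.63, or at -0.21 without N2. The summed adipose level was 352, 386 and 232 CPM with LPS and 149, 333 and 145 CPM with saline.

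Fibroblast, pericyte and matrix genes were called higher in 8 of 18 and lower in 0 (median 0.67), and AKI-156 was the lowest LPS library for 10 of them. Col1a1, the fibrillar collagen chain, stood at 13.4, 54.9 and 70.5 CPM against 8.04, 5.7 and 6.08 CPM (2.81 ± 0.47, edgeR adjusted p = 0.000639), and Col3a1 at 63.2, 94.1 and 118 CPM against 16.3, 11 and 6.92 CPM (3.01 ± 0.36). The basement membrane collagens Col4a1 and Col4a2 rose by 2.01 ± 0.19 and 1.77 ± 0.20, and the fibroblast receptor Pdgfra, at 102, 88.3 and 104 CPM against 28.2, 32.1 and 23.9 CPM, by 1.80 ± 0.25. Ren1 (renin) stood at 55.8, 181 and 99.4 CPM against 68.2, 80 and 69.7 CPM and was not called.

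**Figure D4:**
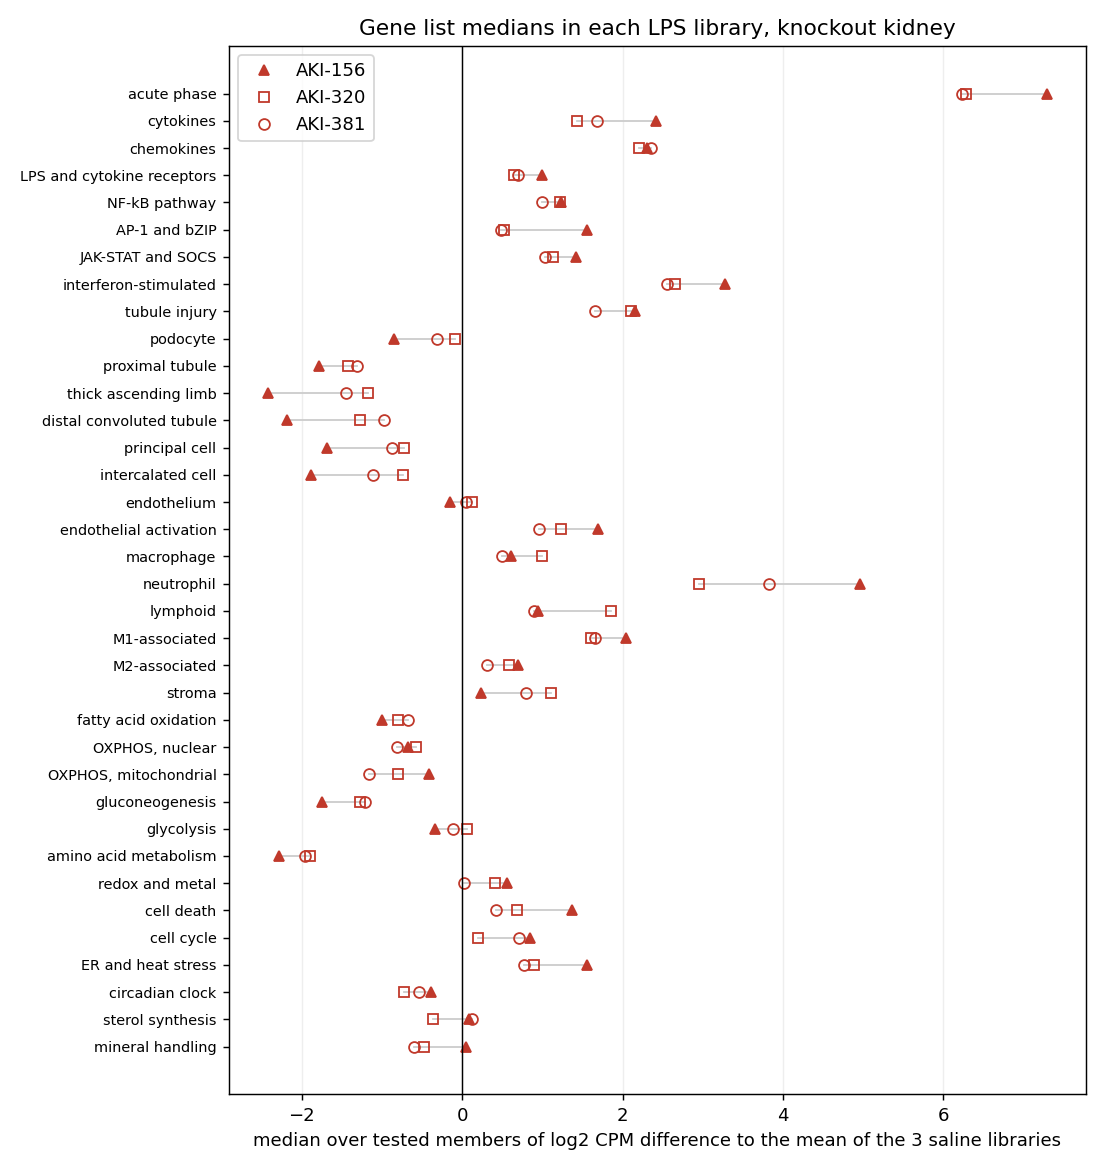
Median over the tested members of each gene list of the log2 difference from the mean of the 3 saline libraries, for each LPS library (filled triangle AKI-156, square AKI-320, circle AKI-381). AKI-156 lay outermost for interferon-stimulated genes (3.28 against 2.66 and 2.55) and thick ascending limb genes (-2.42 against -1.17 and -1.45), and lowest for stroma (0.23 against 1.11 and 0.79).

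Redox genes were called higher in 8 of 23 and lower in 3 (median 0.44). The higher count lay above the share over all tested genes, 14.7%, and the lower count near its share, 12.9%. Hmox1, haem oxygenase, was even at 191, 177 and 174 CPM against 24.1, 13.7 and 22.1 CPM (3.18 ± 0.44), as was the sulfiredoxin gene Srxn1 at 201, 289 and 246 CPM against 79.9, 77.7 and 79.8 CPM (1.63 ± 0.22). The metallothioneins Mt1 and Mt2 rose by 2.33 ± 0.32 and 3.95 ± 0.43, and Mt2 was uneven at 1840, 555 and 652 CPM. Gsta4, which detoxifies lipid aldehydes and is a glutathione transferase as the knocked-out gene is, stood at 16.9, 18.1 and 15.8 CPM against 110, 114 and 129 CPM and fell by 2.80 ± 0.16 (edgeR adjusted p = 1.3e-07).

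Stress response genes were called higher in 10 of 18 and lower in 1 (median 1.04). The endoplasmic reticulum chaperone Hspa5 stood at 1100, 469 and 811 CPM against 264, 142 and 277 CPM (1.80 ± 0.46, edgeR adjusted p = 0.0104, a call that ended without N2), Sdf2l1 rose by 2.82 ± 0.37 and Ddit3 (CHOP), a transcription factor of the unfolded protein response, by 1.53 ± 0.24. Asns, asparagine synthetase, rose by 2.07 ± 0.24. Cell cycle genes were called higher in 3 of 17 and lower in 1 (median 0.74), and higher in 1 of 17 without AKI-156, N1 or N3. Over all tested genes 14.7% were called higher and 12.9% lower, so the higher count lay near that share and the lower count under it. Mki67, the proliferation marker, stood at 7.33, 3.46 and 10.5 CPM against 5.96, 2.76 and 4 CPM and was not called, the replication helicase subunit Mcm5 rose by 1.64 ± 0.28, and Ccnd1 (cyclin D1) fell by 1.48 ± 0.32.

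Clock genes were called higher in 2 of 15 and lower in 7 (median -0.62), and lower in 5 without AKI-156. The higher count lay near the share over all tested genes, 14.7%, and the lower count above its share, 12.9%. The activator Arntl (BMAL1) stood at 34.4, 18.8 and 18.1 CPM against 5.21, 9.26 and 3.46 CPM (1.99 ± 0.36, edgeR adjusted p = 0.00109). The clock output factors Dbp and Hlf and the repressor Ciart were among the 7 that fell, whereas the repressor Per1 was not called (-0.22). Dbp stood at 17.4, 16 and 25.3 CPM against 89, 57 and 102 CPM (-2.08 ± 0.35), Hlf at 9, 11.3 and 16.4 CPM against 79.9, 79.7 and 87.6 CPM (-2.75 ± 0.26) and Ciart at 1.48, 3.17 and 3.07 CPM against 10.7, 8.95 and 12.9 CPM (-2.07 ± 0.30). Per3 fell by 1.70 ± 0.23. The hour of sampling is not given in the sources used here, and its part in these values was not tested.

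Sterol synthesis genes divided 4 higher and 4 lower of 16 (median -0.12). Cyp51, the sterol demethylase, stood at 46.2, 30 and 27.2 CPM against 160, 195 and 186 CPM (-2.39 ± 0.33), and the farnesyl diphosphate synthase Fdps rose by 1.22 ± 0.19. Genes of mineral balance were called higher in 3 of 12 and lower in 5 (median -0.42), and lower in 3 without N1 or N3. Kl (Klotho), the co-receptor of the phosphate hormone FGF23, stood at 47.5, 105 and 101 CPM against 424, 339 and 312 CPM (-2.08 ± 0.30), and the vitamin D receptor Vdr fell by 1.18 ± 0.22. Cyp27b1, which activates vitamin D, stood at 30.8, 38 and 262 CPM against 10.4, 6.5 and 10.7 CPM, and its rise of 3.59 ± 0.74 was 1.91 without AKI-381. The phosphate transporter Slc34a1 stood at 352, 245 and 186 CPM against 2410, 2020 and 2340 CPM (-3.11 ± 0.31).

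Kidney genes known to differ between male and female mice moved with the treatment. Of 11 known as higher in males 7 were called higher and 0 lower (median 2.76), and of 5 known as higher in females 5 were called lower (median -3.06). Acsm3, an acyl-CoA synthetase, stood at 213, 98.1 and 168 CPM against 5.21, 7.97 and 5.37 CPM (4.69 ± 0.61) and Cyp7b1, an oxysterol hydroxylase, at 71.1, 102 and 15.2 CPM against 2.45, 6.01 and 2.98 CPM (4.04 ± 0.57). Slc7a12, an amino acid transporter, stood at 3.53, 3.34 and 1.2 CPM against 157, 203 and 144 CPM (-5.97 ± 0.48), and Prlr, the prolactin receptor, fell by 3.15 ± 0.39. Kap, an androgen-regulated protein abundant in male kidney, was not called, at 9940, 8190 and 7020 CPM against 7600, 10600 and 9170 CPM. Among X-linked genes 10.1% of 504 were called higher and 12.7% lower, against 14.7% and 12.9% of all tested genes. The X-linked share called lower was thus near that of all genes, and the share called higher under it. Of 8 Y-linked genes tested 7 were called higher.

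The knockout response had largely the direction of the wild-type response, which carried the same change of sex-linked transcripts. Of the 4334 genes called in knockout, 3830 (88.4%) were called in the same direction in wild type and 20 in the opposite one. These 3830 were 42.8% of the 8954 genes called in wild type, which had 4 LPS libraries to the knockout's 3. Across all tested genes, which are not independent replicates, the log2 fold changes of both genotypes had a Pearson correlation of 0.83 and a Spearman correlation of 0.80. For 213 genes (1.36%) the difference of the responses, knockout minus wild type, was called higher and for 117 (0.745%) lower. With library totals these counts were 801 and 94, so that 89.5% of calls were higher instead of 64.5%, and the median difference over all genes moved from 0.003 to 0.369.

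**Figure D5:**
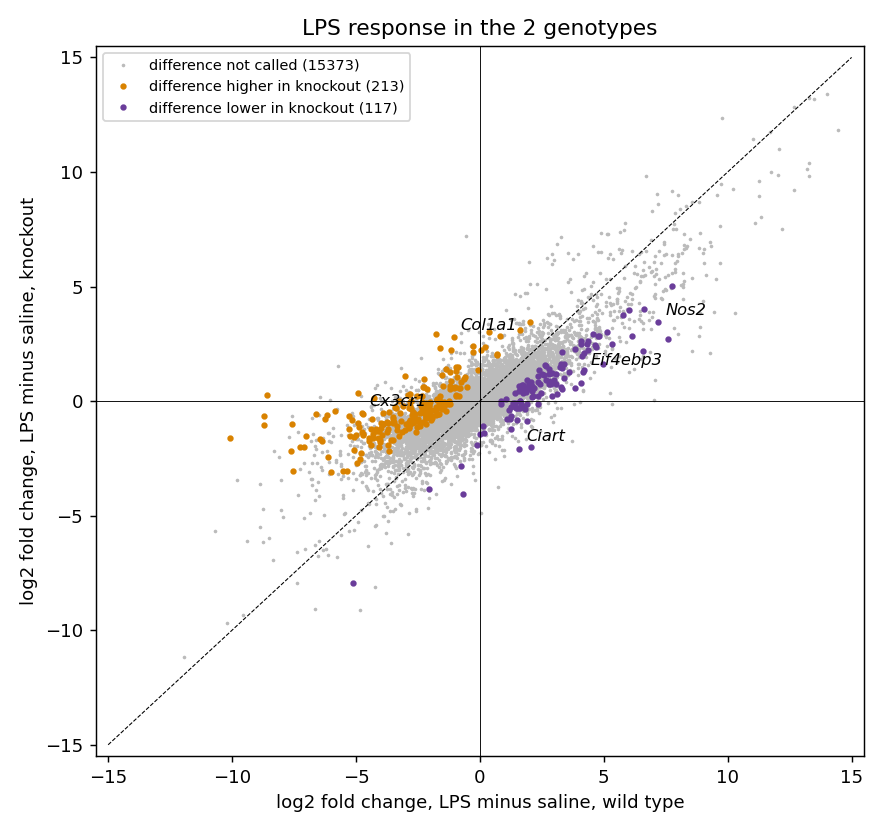
Log2 fold change with LPS in knockout (y axis) against wild type (x axis), 1 point per tested gene, with the dashed line marking equal change. Genes with a called difference are orange (213, higher in knockout) or purple (117, lower in knockout), and Ciart, Eif4ebp3, Nos2, Col1a1 and Cx3cr1 are named.

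These counts were fragile. They were 1414 and 1115 without AKI-156. When another knockout library or a wild-type saline library was left out they lay between 5 and 20 in each direction, and they were 27 and 19 without wild-type LPS library AKI-319, 102 and 74 without AKI-317, 121 and 83 without AKI-12, 264 and 191 without AKI-13, and 5 and 4 with a replicate block. Of the genes named for a called difference, only Ciart and Eif4ebp3 kept it under all 22 alternatives. Ciart, a repressor of the clock, stood at 2.57 ± 0.95 CPM with LPS and 10.9 ± 2.0 CPM with saline in knockout (SD, n = 3 each) and at 4.37 ± 0.372 CPM (n = 4) and 1.44 ± 0.251 CPM (n = 3) in wild type. It fell in knockout and rose in wild type (difference -3.67 ± 0.42, edgeR adjusted p = 0.00375). Eif4ebp3, a binding protein of the translation factor eIF4E, rose less in knockout, from 25.1 ± 3.52 to 60.8 ± 20.3 CPM, than in wild type, from 11.9 ± 2.04 to 217 ± 45.8 CPM (difference -2.90 ± 0.35, edgeR adjusted p = 0.00377). For both genes the saline levels of the genotypes also lay apart.

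Differences called lower in the knockout included immune genes that rose in both genotypes. Nos2 reached 134 ± 60.5 CPM in wild-type LPS kidney (n = 4) against 8.59 ± 5.48 CPM in knockout (n = 3), and its difference of response was -3.74 ± 0.75 (edgeR adjusted p = 0.0369). One wild-type library, AKI-319, stood apart at 224 CPM, and without it the difference was -3.37 (edgeR adjusted p = 0.0513). Cxcl10, an interferon-induced chemokine, had a difference of -3.29, Cd274 (PD-L1) of -2.85 and Sectm1b of -3.37. The IκB gene Nfkbia had a difference of -1.63 (edgeR adjusted p = 0.0198) and Tap1 of -1.92. Mfsd2a, a lysophospholipid transporter, had a difference of -4.39, and the antisense transcript Slc6a19os of -4.89. Upp2, a uridine phosphorylase, stood at 40, 8.62 and 14.6 CPM against 9.86, 11.5 and 21.1 CPM in knockout, was not called there and had a difference of -3.25. Strand use in the counting is not given in the sources used here, so reads of Slc6a19os and of the gene opposite cannot be told apart.

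Differences called higher in the knockout included genes that fell in wild type and less or not at all in knockout. The ABC transporter genes Abca9 and Abca8a had differences of 5.47 and 4.35. Abca9 stood at 0.0992 ± 0.155 CPM in wild-type LPS kidney and 14.7 ± 1.31 CPM in wild-type saline kidney, against 3.08 ± 2.39 and 9.03 ± 1.98 CPM in knockout. The macrophage receptor Cx3cr1 had a difference of 4.25, the channel subunit Kcnip2 of 4.63 and the ammonia channel Rhcg, of intercalated cells, of 3.42. Wscd2, Crocc and Mtfp1 had differences of 3.77, 3.73 and 3.52. In Rhcg, at 5.78, 59.5 and 40.6 CPM with LPS, and in Crocc, at 1.99, 21.8 and 17.1 CPM, AKI-156 lay near the wild-type LPS means of 3.72 and 1.53 CPM. Col1a1 had a difference of 3.87 (edgeR adjusted p = 0.0208), with wild type at 5.66 ± 2.03 CPM under LPS and 11.9 ± 1.04 CPM with saline. The endothelial receptor Tek, which fell by 0.87 in knockout (a call that ended without AKI-156, AKI-381, N1 or N2), had a difference of 2.31.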

How the data were processed

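Kidney RNA of 13 libraries was sequenced. The authors deposited raw counts per gene for each library, per the file headers, with FPKM values beside them. The deposited FPKM values were not used. Per the submitters' processing notes, TopHat2 2.0.9, HISAT2 and edgeR were named, and a human build is listed there although the identifiers are mouse. The aligner, strand setting and annotation release used for counting are not given in the sources used here. Of 15651 tested genes found in the mouse reference, 76.3% had the same chromosome, start and end as the deposited table.

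The deposited counts were fitted with edgeR 4.0.16 under R 4.3.3 (TMM factors, filterByExpr with a minimum count of 10, quasi-likelihood test, 1 mean for each of the 4 groups over all 13 libraries). This left 15703 of 34745 genes, at least 99.928% of each library's counts. P-values were adjusted by Benjamini-Hochberg over all tested genes and a gene was called below 0.05. SE is the size of the log2 fold change divided by the square root of F. Levels are given in CPM, scaled by TMM. For a group without any count a floor of 3 counts over the group gave the bound, and a group with 1 to 3 counts is given as a ratio of scaled counts with a 95% interval. Intervals and floors cover counting error only. The mitochondrial share was compared by an exact permutation test.

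The 43 gene lists, the comparison and the members were chosen with earlier results of these data known, so list counts are descriptions beside the shares over all genes. Genes were named by rule, as up to 12 largest rises and falls with libraries that do not overlap and a mean of at least 5 CPM (passing over X- and Y-linked marker genes, predicted genes, pseudogenes, IDs without a symbol and immune receptor segments), up to 8 genes per direction for the difference between genotypes, and from each list the first 3 members, up to 4 called with the smallest p and up to 2 uncalled with the highest mean. Gstk1 and kidney markers were added, and exceptions are stated.

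No replicate pair agreed within counting noise. Replicate numbers N1 to N3 occur in the saline groups of both genotypes, and their deviations were checked by correlation (0.0179, -0.0501 and -0.0299), so they were treated as numbers only. Alternatives were RLE factors, library totals, DESeq2 1.42.0, limma-voom (limma 3.58.1), no filter, a filter of 1 CPM in 3 libraries, mitochondrial genes left out, a size threshold of 1 log2 unit, the 6 knockout libraries alone, a replicate block, and each library left out. On simulated counts for 15452 genes, 100 were changed by 1 log2 unit and 100 by 2 log2 units, and the other 15252 were unchanged. The changed genes were not scarce with saline, and rises and falls were equal in number. The knockout comparison recovered 31% of changes of 1 log2 unit and 89% of changes of 2 log2 units, with 3.23% false among called. The real comparison had far more calls and a split that moved with scaling, so these shares do not carry over to it. Promoter sequences came from RefSeq (GRCm38.p6). Some members of the gene lists are counted but not reported here by name.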

Additional observations from a re-analysis of the deposited data

Results flagged for a closer look

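The difference of the LPS response between genotypes, knockout minus wild type, was itself tested and called for 213 genes higher and 117 genes lower. Both counts rest on single libraries, as given below under the processing.

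Among named genes the difference was higher in knockout for Abca9 (log2 5.47), Kcnip2 (4.63), Abca8a (4.35), Cx3cr1 (4.25), Col1a1 (3.87), Wscd2 (3.77), Crocc (3.73), Mtfp1 (3.52), Rhcg (3.42) and Tek (2.31). It was lower for Slc6a19os (-4.89), Mfsd2a (-4.39), Nos2 (-3.74), Ciart (-3.67), Sectm1b (-3.37), Cxcl10 (-3.29), Upp2 (-3.25), Eif4ebp3 (-2.90), Cd274 (-2.85), Tap1 (-1.92) and Nfkbia (-1.63). The edgeR adjusted p of these genes lay between 0.00375 and 0.0472. For all of them but Ciart and Eif4ebp3 at least 1 alternative ended the call. Groups held at most 4 libraries, and only the wild-type LPS group was large enough to look for single outlying values, which was done for these 21 genes. Nos2 in AKI-319 stood at 224 CPM with the next library at 111 CPM, a gap of 0.903 of the group's range. Chance alone sets about 1 in 20 such groups apart.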

How the results depend on the processing

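The LPS response of the knockout kept its direction for the named genes under every alternative except Upp2 (between -0.28 and 0.98 when single libraries were left out, lowest without AKI-156) and Kap (0.04 with library totals, and between -0.26 and 0 when single libraries were left out), neither of which was called. With library totals 1341 genes were called lower in knockout instead of 2024. Asking also for a change of 1 log2 unit or more left 1414 higher and 1329 lower. Counts of calls higher lay between 1564 and 2482 and of calls lower between 1410 and 2225 when single libraries were left out. DESeq2 called 2522 genes higher, limma-voom 2481 and the 6 knockout libraries alone 1909.

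The difference between genotypes moved far more. Genes called higher numbered 801 with library totals, 783 with DESeq2, 1188 with limma-voom and 5 to 1414 when single libraries were left out. Genes called lower numbered 94 with library totals, 602 with DESeq2, 1080 with limma-voom and 5 to 1115 when single libraries were left out, the highest counts being without AKI-156. The replicate block for the saline numbers N1 to N3, which share only a number, left 5 higher and 4 lower, and 1879 called higher in the knockout response. At an unadjusted p below 0.05 there were 3487 genes for the difference and 6038 for the knockout response. The cause of these shifts was not tested. With 3 libraries a group, a gene without a call is not shown to be unchanged.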
